A study of Mus musculus with 9 samples.

Results

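Transcripts of 8 apolipoprotein genes, Apoe, Apoc1, Apoa1, Apoc3, Apoa4, Apoa2, Apob and Apod, were followed in mouse ovaries on postnatal day (PD) 14, 15 and 16. The genes were taken by symbol, each matched 1 of the 52025 genes in the tables, and 5 of them were among the 15495 genes tested. They were selected on measured values, since the FPKM of these same libraries, with the higher Apoa4 at PD16, were known when the list was drawn up. The changes of these 8 genes between days are therefore given as a description, without p-values. Ovaries came from juvenile Kunming mice, an outbred stock, and the 3 groups differed only in age, with no treatment or genotype named for any of them. The study sampled these days because they span iFFA, its name for the first appearance of an antrum, when fluid first gathers between the granulosa cells. There were 3 RNA-seq libraries a day, described as independent ovaries. Levels are FPKM, that is, mapped fragments scaled to transcript length and library depth, so they can be compared between genes as well as between days.

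Apolipoproteins are the protein part of lipoproteins, the particles that carry cholesterol and triglyceride through plasma and other body fluids. Apolipoprotein B builds the large particles of liver and intestine, the A group is found mainly on high-density lipoprotein, the C group are small exchangeable proteins that adjust lipases and uptake, and apolipoprotein E is the ligand by which receptors on the cell surface take particles up. In the ovary, lipoprotein cholesterol is a precursor of steroid hormones, high-density lipoprotein is the main class that passes into follicular fluid, and apolipoprotein E is made by several cell types including macrophages.

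Libraries held 20.3 to 28.7 M mapped fragments, as derived from the smallest steps between FPKM values, and 14590 to 14923 genes lay above 1 FPKM in each. The source label reads granulosa cells while the tissue label and the study's text read ovary. All 10 oocyte markers, all 7 markers of theca and interstitial cells, all 7 of stroma and all 5 of endothelium were among the genes tested, next to all 10 granulosa cell markers, so the libraries are described here as ovaries. In such bulk RNA, fewer cells of a type and less RNA per cell cannot be told apart.

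The members Apoa1, Apoc3, Apoa4, Apoe and Apoc1 lie in a pair of clusters. On chromosome 9 (GRCm38 coordinates, gene models of GENCODE M21), Apoa1 (ENSMUSG00000032083) lies at chr9:46228580-46230466 on the plus strand. Apoc3 (ENSMUSG00000032081) follows at chr9:46232933-46235636 on the minus strand, 2.5 kb away, and Apoa4 (ENSMUSG00000032080) at chr9:46240696-46243459 on the plus strand, a further 5.1 kb away. On chromosome 7, Apoe (ENSMUSG00000002985, chr7:19696109-19699188) and Apoc1 (ENSMUSG00000040564, chr7:19689481-19692660) both lie on the minus strand, 3.4 kb apart. Apoa2 (chr1:171225054-171226379, plus strand), Apob (chr12:7977648-8016835, plus strand) and Apod (chr16:31296192-31314808, minus strand) lie elsewhere, each on its own.

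The promoters of Apoa4, Apoa1 and Apoe are shown, as those of the most abundant members, of which Apoa4 and Apoa1 share a cluster and differ in their course over the days. Sequences are from RefSeq (GRCm38.p6), 5′ to 3′ on the strand of the gene, and stop where the longest gene model begins. Apoa4 is chr9:46240594-46240695 (plus), Apoa1 is chr9:46228380-46228579 (plus) and Apoe is chr7:19699189-19699438 (minus). Capitals mark a match to a searched motif.
Apoa4: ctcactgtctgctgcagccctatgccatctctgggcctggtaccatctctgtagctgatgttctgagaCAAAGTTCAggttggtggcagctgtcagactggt
Apoa1: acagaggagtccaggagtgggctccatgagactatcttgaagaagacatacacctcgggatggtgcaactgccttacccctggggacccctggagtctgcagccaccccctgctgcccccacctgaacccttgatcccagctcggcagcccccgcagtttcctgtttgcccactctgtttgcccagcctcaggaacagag
Apoe: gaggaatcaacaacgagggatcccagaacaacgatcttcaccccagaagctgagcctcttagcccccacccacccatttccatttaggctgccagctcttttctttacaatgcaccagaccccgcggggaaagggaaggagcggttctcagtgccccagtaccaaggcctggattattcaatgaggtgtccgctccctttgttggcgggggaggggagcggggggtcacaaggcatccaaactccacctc

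In the 250 bases before the RefSeq start, both strands were searched for AGGTCA (the half-site of nuclear receptors, in 14.0% of 32851 mouse promoters), TATAAA (12.4%), CCAAT (33.8%) and GGGCGG (32.7%). None of these letters occurred in the Apoa4 or Apoa1 window, nor in the window of the most upstream Apoe start. RefSeq lists 2 further starts within Apoe, and the window of one of them holds TATAAA 96 bases before that start and its reverse complement TTTATA at 100. A further motif, CAAAGTNCA, the core of sites bound by the nuclear receptor HNF4, was added after the Apoa4 sequence had been seen. It occurred 182 bases before the RefSeq start of Apoa4, on the strand of the gene, as the capitals CAAAGTTCA show. It was not found in the windows of Apoa1 and Apoe and occurs in 1.19% of mouse promoters. A match of letters is no evidence of binding, and Hnf4a itself averaged 0.0075 FPKM in these ovaries.

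The 8 genes spanned a wide range of levels. Apoe was highest, at a mean of 125 FPKM over the 9 libraries, rank 342 among the genes tested. It made up 64.3% of the summed FPKM of the 8 genes. Apoa4 (mean 30.4, 15.7% of the sum) and Apoa1 (mean 29.3, 15.1%) came next. The order of these neighbours turned with the day, and their ranges of 15.5 to 49.1 and 23.5 to 34.7 FPKM overlapped. Apoc3 (mean 6.57, range 4.06 to 8.92) lay below every value of Apoa1 and Apoa4, and Apoc1 (mean 2.37, range 1.24 to 3.23) below every value of Apoc3. Apoa2 averaged 0.427 FPKM, and its highest library (1.31) exceeded the lowest of Apoc1. Apod (mean 0.0755) and Apob (mean 0.00681) were lowest.

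**Figure D1:**
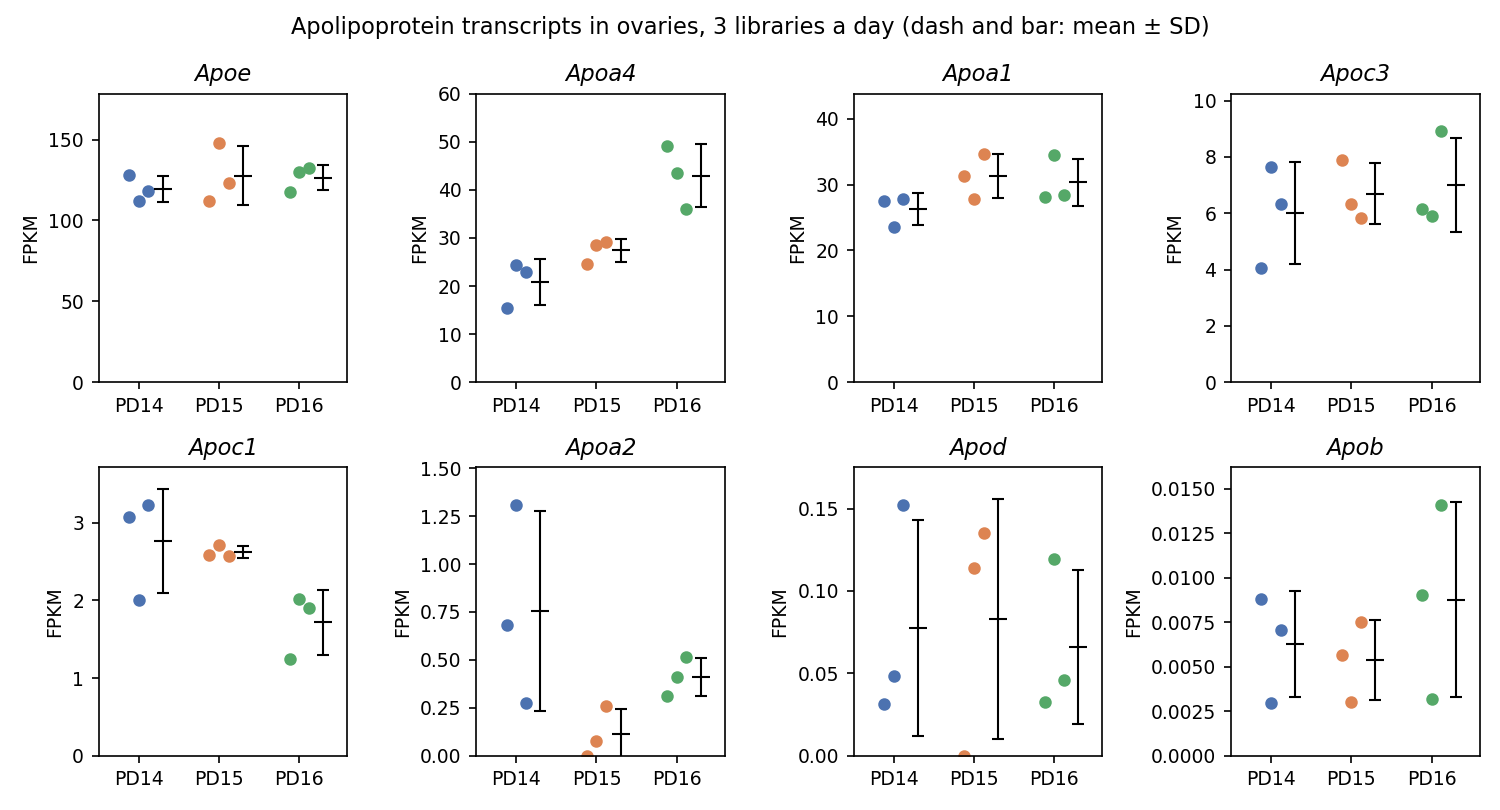
FPKM of the 8 apolipoprotein genes by postnatal day, each on its own linear axis from 0; points are the 3 libraries of a day, the dash and bar are mean ± SD, and the bar of Apoa2 at PD15 is clipped at 0. Apoa4 is higher on each later day without overlap, Apoc1 at PD16 lies below all PD15 libraries, and Apoe lies between 112 and 148 FPKM on all days.

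Apoe, the receptor ligand, was steady over the days. It was at 128, 112 and 118 FPKM in the PD14 libraries, at 112, 148 and 123 at PD15, and at 118, 130 and 132 at PD16. The 3 days overlapped, and the highest value belonged to a single PD15 library. Day means were 119 ± 8.04, 128 ± 18.2 and 126 ± 7.86 FPKM (SD, n = 3), so the differences between means were smaller than the spread within PD15. On the log2(FPKM + 1) scale, the change from PD14 to PD16 was 0.08 ± 0.11 (SE from the limma model of all 9 libraries). About 5151 to 7571 fragments per library stood behind these values.

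Apoc1, a small protein that hinders receptor uptake and activates lecithin-cholesterol acyltransferase, lay 3.4 kb from Apoe and took another course. It was at 3.07, 2.0 and 3.23 FPKM in the PD14 libraries and at 2.59, 2.71 and 2.57 at PD15. At PD16 it was at 1.24, 2.01 and 1.90. All PD16 libraries were lower than all PD15 libraries, while the highest PD16 library was just above the lowest PD14 library. The PD16 mean was 0.655 times that of PD15 and 0.621 times that of PD14, with log2 changes of -0.43 ± 0.15 and -0.47 ± 0.15 (SE). With a pseudocount of 0.01 in place of 1, these became -0.64 and -0.69. Only 22 to 56 fragments per library were counted, and the lowest library, at 1.24 FPKM, has an exact 95% Poisson interval of 0.779 to 1.88, which covers counting error only. The ratio of Apoc1 to Apoe was 0.0179 to 0.0273 at PD14, 0.0184 to 0.0231 at PD15 and 0.0106 to 0.0155 at PD16, so the PD16 ratios lay below those of both other days. The summed FPKM of the 10 oocyte markers was likewise lowest at PD16 (1060 to 1140, against 1120 to 1400 at PD14 and 1460 to 1580 at PD15). Over the 9 libraries, this sum had an r of 0.78 with Apoc1 and -0.57 with Apoa4. Of the 10 markers, 8 had a negative and 2 a positive log2 change from PD14 to PD16, and the 1 called by limma, Bmp15, was higher, with means of 65.4 FPKM at PD16 and 49.7 at PD14. All 10 had a negative log2 change from PD15 to PD16, of which Zp2 and Nlrp5 were called. The part of these cells in the Apoc1 and Apoa4 values was not tested.

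The other genes of the Apoe cluster were lower. Apoc4, 8.0 kb from Apoc1, averaged 0.72 FPKM and was not tested, with 32 to 60 fragments per library against 22 to 56 of Apoc1. It was at 0.579, 0.555 and 0.619 FPKM at PD14, at 0.759, 0.927 and 0.823 at PD15, and at 0.662, 0.764 and 0.790 at PD16. All PD14 libraries lay below all libraries of the later days, which overlapped. Apoc2, which encodes the cofactor of lipoprotein lipase, averaged 0.0786 FPKM, with 4 libraries at 0. The map of the clusters shows the drop in level from Apoe to its neighbours on the same strand.

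**Figure D2:**
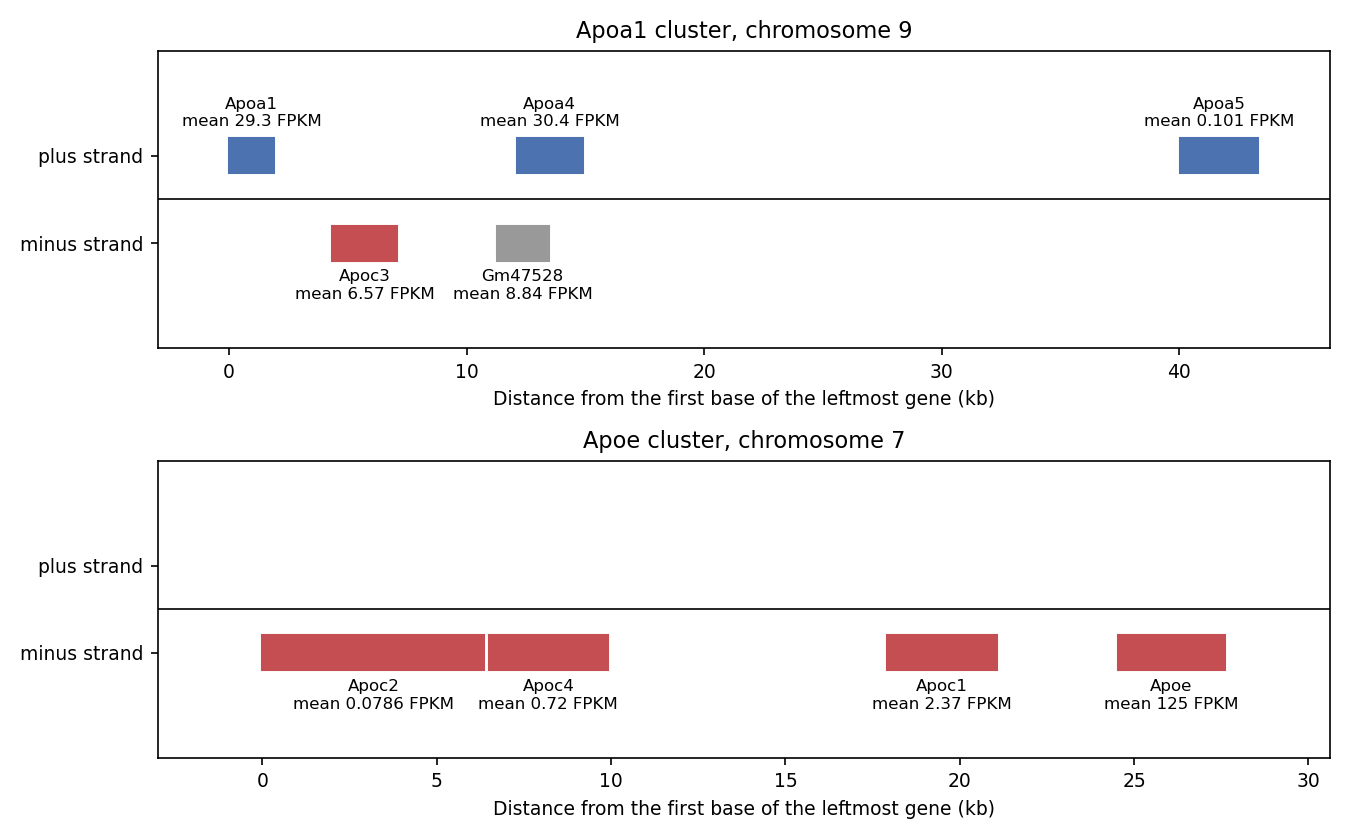
Position of the genes of the Apoa1 cluster (top) and the Apoe cluster (bottom), in kb from the leftmost gene, with the strand on the vertical axis and the mean FPKM over 9 libraries as labels; the grey box is Gm47528, a gene model on the strand opposite to Apoa4. High and low genes lie side by side, with Apoa4 at 30.4 and Apoa5 at 0.101 FPKM.

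Apoa4, an exchangeable protein of chylomicrons and high-density lipoprotein, had the largest log2 change among the 5 genes tested. It was at 15.5, 24.3 and 23.0 FPKM in the PD14 libraries, at 24.6, 28.5 and 29.1 at PD15, and at 49.1, 43.6 and 36.0 at PD16. Each day lay above the day before without overlap, although the lowest PD15 library was only just above the highest PD14 library. The first PD14 library was low and the first PD16 library high. Means were 20.9 ± 4.76, 27.4 ± 2.42 and 42.9 ± 6.56 FPKM (SD, n = 3). The ratio of means was 2.05 for PD16 against PD14, 1.56 for PD16 against PD15 and 1.31 for PD15 against PD14, and the log2 changes were 1.02, 0.62 and 0.40, each ± 0.17 (SE). Leaving out single libraries moved the first of these between 0.82, without PD14 replicate 1, and 1.13, without PD14 replicate 2 or PD16 replicate 3. The change from PD14 to PD15 was 0.20 without PD14 replicate 1 and 0.51 without PD14 replicate 2. The counting error was smaller than the spread between libraries, with 95% Poisson intervals of 14.3 to 16.7 FPKM for the lowest library and 47.0 to 51.2 for the highest.

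A second gene model covers a part of Apoa4 on the other strand. Gm47528 (ENSMUSG00000111282, chr9:46239841-46242032, minus strand), a model of GENCODE's class TEC, which awaits experimental proof, shares 1337 bases with Apoa4. Its values were 4.19, 7.31 and 6.34 FPKM at PD14, 7.53, 8.57 and 7.45 at PD15, and 12.8, 11.8 and 13.6 at PD16. They ran alongside those of Apoa4 (r = 0.95 over 9 libraries that share their depth and day), and their PD16 mean was 12.7 ± 0.879 FPKM against 5.95 ± 1.60 at PD14 (SD, n = 3). The strand setting of the counting is not given in the sources used here, so fragments of Apoa4 and of this model cannot be told apart. A second model opposite Apoa4, Gm10680, was listed at 0 in 7 libraries and reached 0.0581 FPKM at most.

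Apoa1, the main protein of high-density lipoprotein, was close to Apoa4 in level but not in course. It was at 27.5, 23.5 and 27.9 FPKM in the PD14 libraries, at 31.4, 27.9 and 34.7 at PD15, and at 28.1, 34.5 and 28.5 at PD16. The PD16 libraries all lay above those of PD14, but by a margin of 28.1 against 27.9, and PD15 overlapped with both. Means were 26.3 ± 2.41, 31.3 ± 3.40 and 30.4 ± 3.59 FPKM (SD, n = 3), and the log2 change from PD14 to PD16 was 0.20 ± 0.11 (SE). It was 0.10 without PD16 replicate 2, 0.12 without PD14 replicate 2 and at most 0.25 without any other library.

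The balance of Apoa4 and Apoa1 turned over the days. The ratio of Apoa4 to Apoa1 was 0.562, 1.03 and 0.825 in the PD14 libraries, 0.786, 1.02 and 0.841 at PD15, and 1.75, 1.26 and 1.27 at PD16. All PD16 libraries held more Apoa4 than Apoa1 and lay above every library of the other days. In PD14 and PD15, 1 library a day was just above parity.

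Apoc3, an inhibitor of lipoprotein lipase that lies between Apoa1 and Apoa4, did not follow Apoa4. It was at 4.06, 7.63 and 6.34 FPKM in the PD14 libraries, at 7.90, 6.34 and 5.84 at PD15, and at 6.17, 5.91 and 8.92 at PD16. The days overlapped, and the lowest value was in the same PD14 library that was lowest for Apoa4. The log2 change from PD14 to PD16 was 0.20 ± 0.20 (SE), from 101 to 230 fragments per library, and ran from -0.01 without PD14 replicate 1 to 0.37 without PD14 replicate 2. The ratio of Apoa4 to Apoc3 ran from 3.18 to 3.81 at PD14, from 3.12 to 5.0 at PD15 and from 4.04 to 7.96 at PD16, so that PD16 lay above PD14 while PD15 overlapped with both. Apoa5, a regulator of plasma triglyceride 25.2 kb beyond Apoa4, averaged 0.101 FPKM.

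As a description over 9 libraries that share days and depth, the Pearson correlation of log2(FPKM + 1) was 0.34 for Apoa1 and Apoa4, 0.36 for Apoa4 and Apoc3 and -0.15 for Apoa1 and Apoc3. With the mean of each day subtracted, these became -0.18, 0.23 and -0.49. Spearman's rho over the 9 libraries was 0.60, 0.02 and -0.08, so for Apoa1 and Apoa4 the value depended on how it was computed. Apoa4 and Apoc1, on different chromosomes, ran in opposite directions (r = -0.82, and -0.54 with day means subtracted). Apoc1 and Apoe, which are neighbours, stood at 0.17 (0.53 with day means subtracted).

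Apoa2, Apob and Apod stayed below 1 FPKM on average on every day, were not tested and are given by their fragments. Apoa2, the second protein of high-density lipoprotein, gave 29, 5 and 16 fragments on PD14, PD15 and PD16. Its FPKM were 0.684, 1.31 and 0.274 at PD14, 0, 0.0782 and 0.259 at PD15, and 0.313, 0.410 and 0.512 at PD16. PD15 was lowest without overlap, yet the nearest libraries, 3 fragments at PD14 and 4 at PD15, have intervals of 0.0567 to 0.803 and 0.0706 to 0.664 FPKM. The PD15 library at 0 allows up to 0.22 FPKM by the value of 3 fragments, and up to 0.27 FPKM by the upper end of its 95% interval. Apod, a lipocalin that carries small lipids, gave 13, 17 and 12 fragments on the 3 days and ranged from 0 to 0.152 FPKM. Apob, the structural protein of very-low-density lipoprotein and chylomicrons, gave 6, 6 and 9 fragments and ranged from 0.00297 to 0.0141 FPKM. No difference between days could be detected in Apod or Apob at this depth.

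Over all genes tested, limma called 4.25% from PD14 to PD16 with a threshold of 0.05 on the adjusted p, 0.678% between PD14 and PD15 and 0.729% between PD15 and PD16. These shares, from 659, 105 and 113 genes, depended on single libraries. Leaving out each in turn gave 92 to 660, 3 to 92 and 14 to 125 genes. Of the 5 members tested, Apoa4 passed the threshold between PD14 and PD16, and the other members or days did not. Since Apoa4 was chosen on this pattern, nothing is read from its call, which was lost without PD16 replicate 1 (log2 change 0.92) and when no filter on low values was set. Groups of libraries did not overlap for 28.5% of the genes between PD14 and PD16, for 20.6% between PD14 and PD15 and for 19.6% between PD15 and PD16. Among the 5 members tested, those without overlap were Apoa4 and Apoa1 (both higher) between PD14 and PD16, Apoa4 (higher) between PD14 and PD15, and Apoa4 (higher) and Apoc1 (lower) between PD15 and PD16. The median log2 change of the 5 members was 0.16, 0.20 and -0.00 for PD15 against PD14, PD16 against PD14 and PD16 against PD15, where the median of all genes was 0.007, 0.009 and 0.009. These comparisons share libraries.

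**Figure D3:**
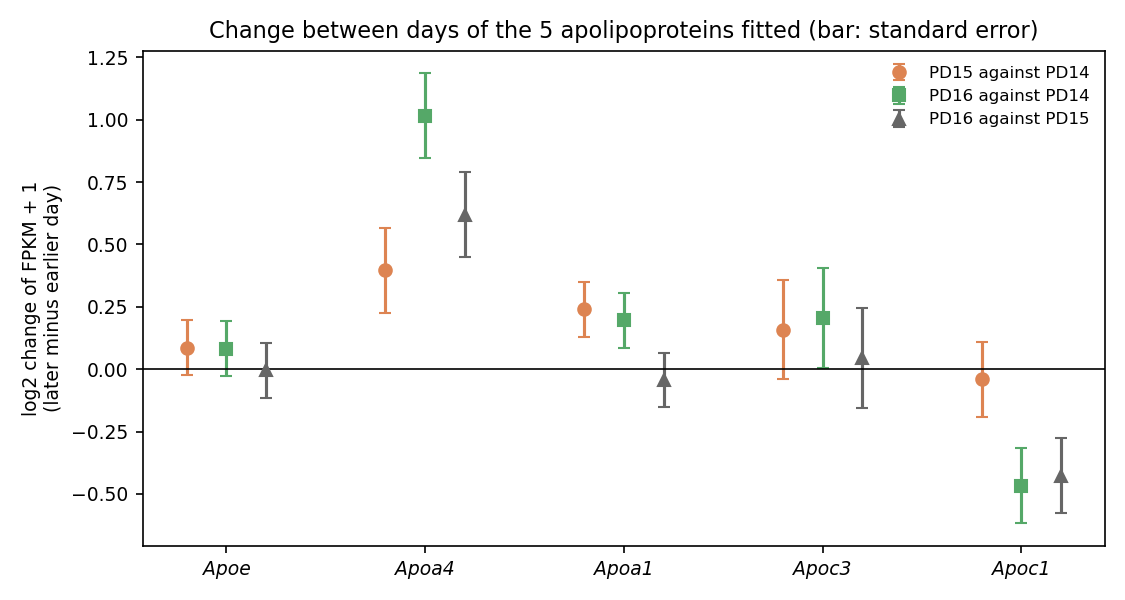
Change in log2(FPKM + 1) between days for the 5 tested apolipoproteins, later minus earlier day, with bars for the standard error of the limma model of 9 libraries. Apoa4 is above 0 in the 3 comparisons, Apoc1 is below 0 in both comparisons with PD16, and Apoe and Apoc3 lie within about 1 standard error of 0.

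Genes that make, carry, receive and control lipoproteins were then compared with the members. Of 94 such genes in 6 lists, 53 were tested. The lists were drawn up with earlier results of these data known. The shares below are therefore a description, and nothing is read from them for the lists as a set. Between PD14 and PD16, limma called 3 of the 53 (5.66%), all higher at PD16, where 4.25% of all genes were called. This count was 1 to 5 when single libraries were left out, and 1 of 93 with no filter on low values. Between PD15 and PD16 limma called 1 (1.89%), also higher, and 0 to 1 when single libraries were left out. Between PD14 and PD15 it called 0. At an unadjusted p under 0.05 there were 12 of the 53 in this comparison (22.6%, against 14.7% of all genes), 12 between PD14 and PD16 (22.6%, against 22.8%) and 10 between PD15 and PD16 (18.9%, against 14.1%). Among the 53, Apof, Apol10b and Lcat were tested only through their PD16 means. Over the 50 pathway genes with a mean above 1 FPKM across all 9 libraries, a recount chosen after seeing the data, the unadjusted counts were 12 (24%, against 14.5% of all genes so filtered), 10 (20%, against 22.9%) and 8 (16%, against 13.8%). The genes called were Creb3l3 and Pparg, both transcription factors, and the receptor Cd36.

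Among 16 transcriptional regulators of apolipoprotein genes, 12 were tested. Between PD14 and PD16, 6 had higher and 6 lower estimates, 2 were called, both higher, and the median log2 change was -0.01. Creb3l3 encodes CREBH, a membrane-bound factor of liver and intestine that is known to act on Apoa4 in the liver. It was at 2.54, 2.40 and 2.25 FPKM at PD14, at 4.32, 3.36 and 4.06 at PD15, and at 4.86, 4.25 and 5.62 at PD16. The PD14 libraries all lay below those of the later days. Its log2 change to PD16 was 0.79 ± 0.10 (SE; limma, adjusted p = 0.01), and the call held in all 9 fits that left out a library (adjusted p 0.0123 to 0.0422). At PD15 the change was 0.53 (adjusted p = 0.0639 in limma). Pparg, a fatty acid sensing nuclear receptor of granulosa cells and fat, was at 6.61, 7.99 and 7.93 FPKM at PD14, at 11.2, 8.77 and 9.22 at PD15, and at 17.3, 11.4 and 13.3 at PD16. Each day lay above the day before without overlap. Its log2 change to PD16 was 0.80 ± 0.14 (SE; limma, adjusted p = 0.0234), and the limma adjusted p was 0.0693 when no filter on low values was set, 0.0695 without PD14 replicate 1, 0.0711 without PD14 replicate 3 and 0.0607 without PD16 replicate 1. The regulators with the highest levels did not pass the test. They were Nr5a2, the nuclear receptor LRH-1 of granulosa cells (mean 123 FPKM), Nr1h2 (23.6), Rxrb (22.1) and Srebf2 (21.6). The liver regulator Hnf4a was near 0, as given above.

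Among 22 lipoprotein receptors, adaptors and their regulators, 12 were tested. Between PD14 and PD16, 5 had higher and 7 lower estimates, 1 was called, higher, and the median log2 change was -0.01. Cd36, a scavenger receptor that takes up fatty acids and oxidised lipoprotein, was at 6.75, 7.0 and 7.44 FPKM at PD14, at 6.41, 7.05 and 7.91 at PD15, and at 11.6, 9.51 and 11.3 at PD16. PD14 and PD15 overlapped, and PD16 lay above both. Its log2 change was 0.55 ± 0.09 (SE; limma, adjusted p = 0.0177) against PD14 and 0.54 ± 0.09 (adjusted p = 0.0408) against PD15. Against PD14, the limma adjusted p was 0.0513 when no filter on low values was set, 0.059 without PD14 replicate 1, 0.0522 without PD14 replicate 3 and 0.0664 without PD16 replicate 1. Against PD15, the limma call was lost without any of 5 libraries: PD14 replicate 3 (adjusted p = 0.0632), PD15 replicate 1 (0.129), PD15 replicate 2 (0.114), PD16 replicate 1 (0.126) and PD16 replicate 3 (0.0957). It was also lost with no filter (limma, adjusted p = 0.117), without the intensity trend (0.0511), in a fit of only these days (0.0692) and with the replicate number as a block (0.0559). Lrp1, a large receptor for particles with apolipoprotein E, had the highest level (mean 68.8 FPKM), followed by its chaperone Lrpap1 (26.5) and by Scarb1, the receptor for high-density lipoprotein (14.4). These 3 did not pass the test, with log2 changes to PD16 of 0.37 ± 0.15, -0.16 ± 0.06 and 0.30 ± 0.15 (SE). Vldlr, the receptor for very-low-density lipoprotein, averaged 7.93 FPKM.

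**Figure D4:**
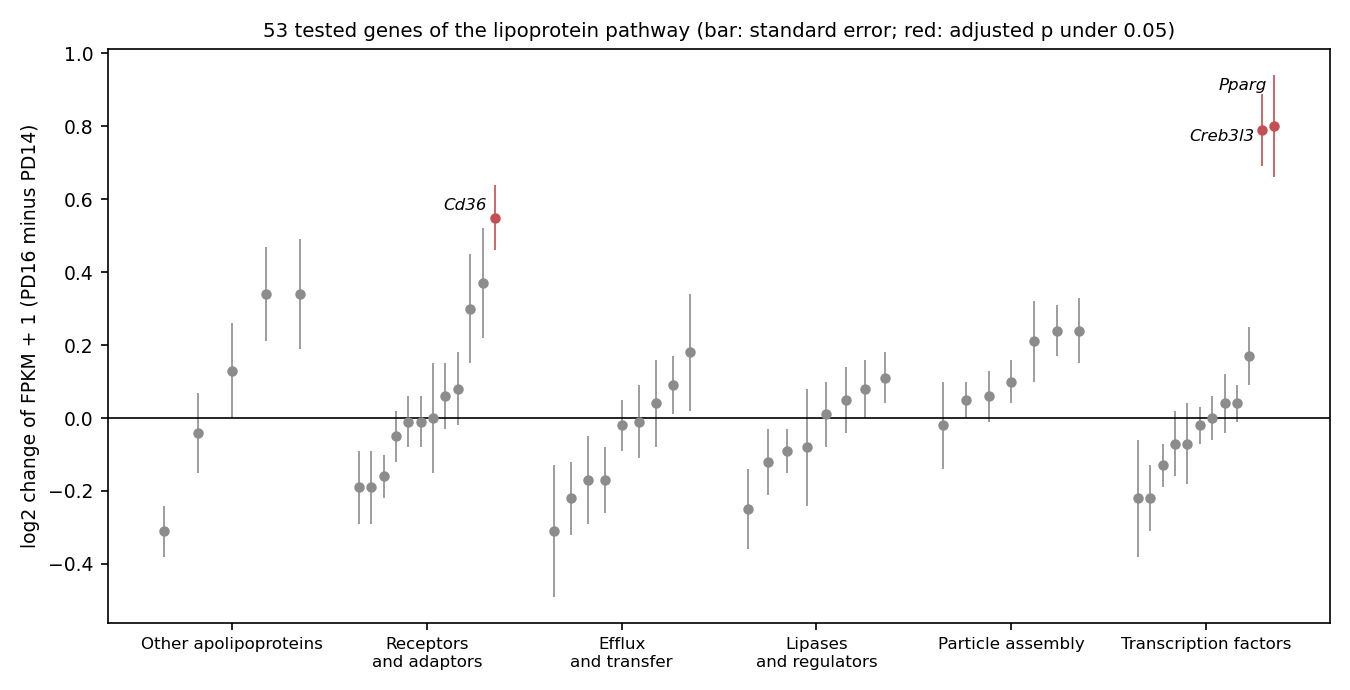
Change in log2(FPKM + 1) from PD14 to PD16 for the 53 tested genes of the 6 lists, ordered by change within a list, with bars for the standard error; red points have a limma adjusted p under 0.05 over all genes. Cd36, Creb3l3 and Pparg stand above the remaining genes, which lie on both sides of 0.

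Of 21 further apolipoproteins and related proteins, 5 were tested and none was called. In limma's unadjusted p between PD14 and PD16, 3 lay below 0.05, namely Clu, Apof and Apol10b, of which the last pair had a mean above 1 FPKM at PD16 alone, so nothing is read from this count. Clu, or apolipoprotein J, was more abundant than Apoe (mean 167 FPKM) and ran the other way from Apoa4. It was at 195, 170 and 198 FPKM at PD14, at 160, 165 and 166 at PD15, and at 147, 152 and 153 at PD16. Each day lay below the day before without overlap, but its log2 change of -0.31 ± 0.07 (SE) to PD16 did not pass the test (limma, adjusted p = 0.0514). Apoo and Apool, proteins of the mitochondrial inner membrane despite their names, averaged 17.7 and 8.34 FPKM and overlapped between days. Apof averaged 0.748 FPKM and entered the test only through its PD16 mean of 1.02, as did Apol10b with 1.07, so their higher values at PD16 are not a result.

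The other lists held no call between any days. Lipid efflux, esterification and transfer was represented by 9 tested genes of 13, and limma gave 0 of them an unadjusted p below 0.05 between PD14 and PD16, where 22.8% of all genes had one. Its highest were Soat1, which stores cholesterol as esters (mean 66.6 FPKM), Abca1, which loads lipid onto Apoa1 (21.9), Pltp (10.6) and Pon3 (7.10). Of 11 lipases and their regulators, 8 were tested, with 1 at an unadjusted p under 0.05 in limma between PD14 and PD16, and the highest were Angptl4, an inhibitor of lipoprotein lipase (38.6), Sel1l (23.8), Lipa (17.3) and Lpl, lipoprotein lipase itself (10.8). Of 11 genes for the assembly and secretion of apolipoprotein B particles, 7 were tested, 6 of them with higher and 1 with lower estimates at PD16 than at PD14 (52.2% of all genes were higher) and a median log2 change of 0.10 (all genes: 0.009), and 2 had an unadjusted p below 0.05 in limma. Here P4hb (286), Surf4 (88.0), Sar1b (42.5) and Mia3 (21.2) were highest, and these also serve secretion at large. Mttp, which loads lipid onto apolipoprotein B, averaged 2.95 FPKM, with a log2 change of 0.24 ± 0.07 (SE; limma, adjusted p = 0.0786), and Apob itself had at most 5 fragments in a library.

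Genes were ranked by the likeness of their log2(FPKM + 1) to that of Apoa4 over the 9 libraries, as a description. The closest were Mras (r = 0.990), a Ras-type GTPase at 55.1 FPKM on PD14 and 71.1 on PD16, Capn6 (0.976), Fam78a (0.972), Car14 (0.969), a membrane carbonic anhydrase, and Dynap (0.967). They were picked for this likeness, so the values support nothing further. Capn6, with day means of 0.722, 0.921 and 1.75 FPKM, entered the test only through PD16, the day on which Apoa4 was highest. In all, 87 of the 15495 genes tested exceeded 0.9 with Apoa4, and 2 did with Apoe, namely Fibin (0.926) and Zbtb24 (0.906). Since Apoa4 rose over the days and Apoe was steady, genes that rose with day tend to a high r with Apoa4. Nothing is therefore read from the difference between these counts. Next for Apoe were Gm37503 (0.885), Gm15958 (0.851) and Gm11663 (0.851), of which Gm37503, with day means of 0.591, 0.982 and 1.08 FPKM, also entered through PD16 alone. Among the called genes above, r with Apoa4 was 0.88 for Pparg, 0.84 for Cd36 and 0.74 for Creb3l3, and 0.38, 0.35 and -0.52 with day means subtracted.

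Markers of other cell types were compared with the members. Each sum has an r with each of the 5 members tested, and mostly the largest are given, so they are extremes of many values. Of 11 macrophage markers, 8 were tested and none was at 0 in any library. Their summed FPKM ran from 31.8 to 34.8 at PD14, from 35 to 43.7 at PD15 and from 38.3 to 47.3 at PD16, and Lyz2, which macrophages share with other myeloid cells, was the only one of them called, higher at PD16 than at PD14. The sum had an r of 0.73 with Apoa4, -0.70 with Apoc1 and 0.20 with Apoe over the 9 libraries, and its part in these values was not tested. Lyz2 carried most of the difference in the sum, with means of 8.91 FPKM at PD14 and 15.8 at PD16, while 7 of the 11 markers had a higher and 4 a lower mean at PD16 than at PD14. Without Lyz2 the sum was 23.1 to 25.3 at PD14, 21.8 to 27.8 at PD15 and 26.1 to 27.7 at PD16, with an r of 0.55 with Apoa4 and -0.59 with Apoc1. Markers of the cells best known for Apoa4 and Apoa1 were low. Of 9 hepatocyte markers, 1 was tested (Ahsg, mean 1.61 FPKM), Alb averaged 0.1 and Ttr was listed at 0 in 8 libraries, and the sum was 2.13 to 2.67 at PD14, 1.87 to 2.45 at PD15 and 2.17 to 2.63 at PD16. Most of this was Ahsg, which had a lower mean at PD16 (1.39) than at PD14 (1.84), while the other 8 markers had higher means at PD16. Summed without Ahsg, these were at 0.470 to 0.678 FPKM at PD14, 0.383 to 0.706 at PD15 and 0.801 to 1.35 at PD16, so PD16 lay above both other days, with an r of 0.68 with Apoa4 and -0.86 with Apoc1. Of these 8, Ttr and Fgb were at 0 in 8 libraries, Tat in 7 and Fga in 6. Alb reached at most 0.538 FPKM, with a PD16 mean of 0.196, so much of this sum lies near the floor. The part of these 8 markers in the members' values was not tested. Of 8 enterocyte markers, 1 was tested (Vil1, mean 6.92), Fabp1 was listed at 0 in all 9 libraries and Fabp2 averaged 0.0684. The enterocyte sum was 6.11 to 10.2 at PD14, 5.96 to 6.80 at PD15 and 5.65 to 7.80 at PD16. It had an r of 0.67 with Apoc1 and -0.56 with Apoa4, and most of it was Vil1. Without Vil1 the sum was 0.326 to 0.405, 0.256 to 0.465 and 0.314 to 0.475 FPKM, and the days overlapped. The r was then -0.05 with Apoc1, 0.25 with Apoa4 and 0.62 with Apoe. Of 6 adipocyte markers, 1 was tested (Plin1), which was called lower by limma at PD15 and at PD16 than at PD14. The adipocyte sum was 6.75 to 8.09 at PD14, 4.31 to 4.83 at PD15 and 4.20 to 5.88 at PD16. Its r was -0.59 with Apoa4 and -0.68 with Apoa1. Nearly all of it was Plin1 (mean 5.28 FPKM), so these are in the main the values of 1 gene. Fabp4 came next, with means of 0.277 FPKM at PD14 and 0.266 at PD16. Adipoq (0.0298 and 0.0618), Cidec (0 and 0.0226) and Retn (0.0604 and 0.0612) had higher means at PD16 than at PD14. Lep was at 0 on both days. The 5 endothelial markers, none of them called between PD14 and PD16, summed to 56.6 to 59.7 FPKM at PD14, 52.3 to 56.3 at PD15 and 50.9 to 53.2 at PD16, with an r of -0.66 with Apoa4 and -0.61 with Apoa1. The 7 markers of theca and interstitial cells, none of them called, summed to 1570 to 2210 FPKM at PD14, 1150 to 1730 at PD15 and 1190 to 1600 at PD16. This sum had an r of -0.75 with Apoc3 and -0.50 with Apoa4. Most of it was Hsd3b1, with means of 1780, 1290 and 1270 FPKM on PD14, PD15 and PD16. Of the 7 markers, 1 had a positive and 6 a negative log2 change from PD14 to PD15. From PD14 to PD16 these were 3 and 4, and from PD15 to PD16 they were 5 and 2. The 7 stromal markers, again with none called, summed to 447 to 517, 403 to 467 and 458 to 471 FPKM, with an r of -0.58 with Apoc3. Of 8 markers of surface epithelium and oviduct, 4 were tested and Krt19 was called, lower at PD16 than at PD14. The other 3 tested, Upk1b, Upk3b and Msln, had higher estimates at PD16 and were not called. Lgr5, Ovgp1, Pax8 and Foxj1, which were not tested, had lower means at PD16 than at PD14. The sum of the 8 markers, at 23.0 to 31.9, 22.4 to 28.0 and 20.5 to 25.0 FPKM, had an r of -0.48 with Apoa1. The 10 granulosa cell markers summed to 2890 to 3550, 2720 to 3110 and 2830 to 3360 FPKM, with an r of -0.36 to 0.37 with the tested members. Amh, Cyp19a1 and Kitl were called between PD14 and PD16, 1 of them higher and 2 lower. The part of these cells in the members' values was not tested.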

How the data were processed

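Whole-ovary RNA was sequenced in 9 libraries, 3 each for PD14, PD15 and PD16, grouped by the age in the labels. The authors deposited FPKM for each library, and the submitters' processing notes name HISAT2 2.0.5 and mm10. The counting tool, its strand setting and the annotation release are not given in the sources used here, and reads shared by overlapping gene models may have been assigned either way. Depth was derived from the steps of low FPKM and the exon lengths of GENCODE M21 (94.9% to 95.3% of low values within 0.05 of a whole fragment). Fragments of the members follow from this depth, and intervals are exact Poisson (95%). Median-ratio factors between libraries were 0.993 to 1.01, so no scaling was added.

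The 15495 genes whose mean on any day exceeded 1 FPKM were analysed as log2(FPKM + 1). This scale understates changes of low genes. One limma model of day with an intensity trend held all 9 libraries, and p-values were Benjamini-Hochberg adjusted over all of them, with a threshold of 0.05. Tested on simulated data for PD16 against PD14 over 15495 genes, the model found 51.0% of 200 shifted genes when the shift was 0.5 (log2), 89.5% for 1 and 99.5% for 2. No 2 libraries were identical. The p-values weigh a difference between day means against the spread of libraries within days, pooled over the 3 days and moderated by limma over all genes.

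The members and the lists of pathway genes and markers were chosen with earlier results of these data known. Beside the members, the genes named were those of the 6 pathway lists with an adjusted p under 0.05, the 4 most abundant of each list, neighbours of members, and the 5 most like Apoa4 and Apoe. Gm47528, Gm10680, Hnf4a, Vldlr, Mttp, Apol10b and Lcat were named after their values were seen, as were the single marker genes. The values of some listed genes are not reported here. Alternatives were other pseudocounts, filters, scalings and limma settings, and each library left out in turn. Marker sums without Lyz2, Ahsg or Vil1 were added after the data were seen. Promoters were those of RefSeq GRCm38.p6, found for 6 of the 8 members. Fits were run in limma 3.58.1 under R 4.3.3. Tables were made with pandas 2.3.3, SciPy 1.17.1 and NumPy 2.4.6 under Python 3.11.15, and figures with Matplotlib 3.10.9.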

Additional observations from a re-analysis of the deposited data

How the results depend on the processing

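Of 267 log2 changes of the 5 tested members under alternatives, 265 moved by less than the SD between libraries of a day. Many of these could not move, since filters, the intensity trend and the replicate block leave a difference of day means unchanged. So do a fit of only the 2 days compared and leaving out a library of the day not compared. The count of 265 is therefore no measure of robustness. Leaving out single libraries moved the changes of Apoa4 without turning their sign, but those of Apoc3 ran from -0.06 to 0.33 (PD15 against PD14), -0.01 to 0.37 (PD16 against PD14) and -0.12 to 0.16 (PD16 against PD15), of Apoc1 from -0.20 to 0.05 (PD15 against PD14), of Apoe from -0.02 to 0.18 (PD15 against PD14) and -0.09 to 0.11 (PD16 against PD15), and of Apoa1 from -0.14 to 0.03 (PD16 against PD15). The counts of genes called depended on the settings. Without a filter on low values, 29, 172 and 24 genes were called for PD15 against PD14, PD16 against PD14 and PD16 against PD15 (reported: 105, 659 and 113), together with 0, 1 and 0 pathway genes (reported: 0, 3 and 1). A mean FPKM above 5 left 63 genes for PD15 against PD14. With only the libraries of the 2 days compared, 47 and 320 genes were called for PD15 and PD16 against PD14, and 0 pathway genes for PD16 against PD15, as was the case without the intensity trend. With the replicate number as a replicate block, 24, 227 and 56 genes were called and 0 pathway genes for PD16 against PD15. For libraries of the same number, the correlation of deviations ran from -0.214 to 0.159, and 3 of 9 were closest to their own number. No pairing by number was seen, but 3 libraries a day are too few to exclude it. Leaving out each library in turn gave 3 to 92, 92 to 660 and 14 to 125 genes called, 3 to 5, 3 to 4 and 1 to 4 members higher on the later day (reported: 4, 4 and 2), 0 to 0, 1 to 5 and 0 to 1 pathway genes, and a log2 change of Apoa4 to PD16 of 0.82 to 1.13. The causes were not tested. Depth limits Apoa2, Apob and Apod, at 0 to 17 fragments per library, and Apoc1, at 22 to 56.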
